A study of Mus musculus with 6 samples.

Results

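The ultraconserved elements are stretches of the genome that are identical between human, mouse and rat, and many of them are copied into RNA. Some lie in exons or introns of protein-coding genes, often genes for RNA-binding proteins, and others lie far from any gene. Their transcripts are known as transcribed ultraconserved regions; several have been described in tumours, and some elements act as developmental enhancers in the nervous system. The array used here carried 481 element numbers, each with a plus probe and a minus probe, so 962 probes in all. The probes were chosen by name: a non-control probe whose array name is uc, a dot, a number and a strand sign. Of the 962, 510 had a row in the authors' deposited value table, among 48436 rows in all, and these 510 are the probes compared below. They were 270 plus and 240 minus probes of 353 element numbers, and for 157 elements both strands were present. The remaining 128 element numbers had no row. The names carry a sign, but the sources used here do not say whether it marks the strand of the transcript or of the probe, or in which species' genome. Positions, host genes and probe sequences of these elements were not used here.

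RNA came from the brains of male C57BL/6 mice aged 9 months: 3 were wild type (WT) and 3 were APP/PS1, a transgenic model of amyloid deposition that carries mutant human amyloid precursor protein and presenilin 1. The promoters of the transgenes, the brain region and whether the WT mice were littermates are not given in the labels. Ribosomal RNA was removed and Cy3-labelled cRNA was made by random priming, which copies whole transcripts and not only polyadenylated ends. Scanner files of 5 arrays were used, all except that of WT replicate 3. None of 20 marker genes for brain cell types and other tissues had a probe that could be named, so the labelled tissue could not be checked.

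Levels are given as log2 signal in the value table, whose median over all probes was 7.05. WT replicates 2 and 3 were nearly identical: over ultraconserved probes detected on all 5 arrays their scatter was 0.0996, against 0.19 to 0.248 between pairs of APP/PS1 replicates. Their mean was therefore used as a single sample, which leaves 2 WT values against 3 APP/PS1 values in each test. Slide 1 carried the scanned WT arrays and slide 2 those of APP/PS1, so a slide effect and a genotype effect cannot be told apart here. In bulk brain tissue, a change in the share of a cell type and a change in the RNA of each cell cannot be told apart either. The few arrays limit the precision.

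Of the 481 elements, 248 gave a clear signal on at least 1 strand on every scanned array, 117 on some arrays only, and 116 on none. A probe was called detected when the scanner software flagged it well above background. On the WT arrays 380 and 351 of the 962 probes were detected, and on the APP/PS1 arrays 386 in replicate 1 and 482 in replicate 3. In percent these were 39.5 and 36.5 in WT and 40.1, 47.2 and 50.1 in APP/PS1 replicates 1 to 3, and on each of the 5 arrays the share was below that of all probes, which ran from 68.1% to 78.6%. The same flag was set for 8.75% and 7.0% of 1200 negative-control spots on the WT arrays, and for 13.0%, 25.1% and 27.6% on the APP/PS1 arrays. The background of the flag was thus higher on the arrays with more detected elements, and its part in the difference was not tested. No ultraconserved spot was saturated.

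Detection on all 5 arrays was reached by 313 probes, 160 plus and 153 minus. Another 218 were detected on 1 to 4 arrays and 431 on none. The share on all 5 arrays was 32.5%, beside 64.5% of all non-control spots. By element, 248 of the 481 had at least 1 strand on all 5 arrays. In 65 of these both strands were detected throughout, while 183 had 1 strand on all 5 arrays and the other on fewer. The opposite probe was detected on none of the 5 arrays for 62 elements with the plus probe on all 5, and for 46 with the minus probe on all 5.

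**Figure D1:**
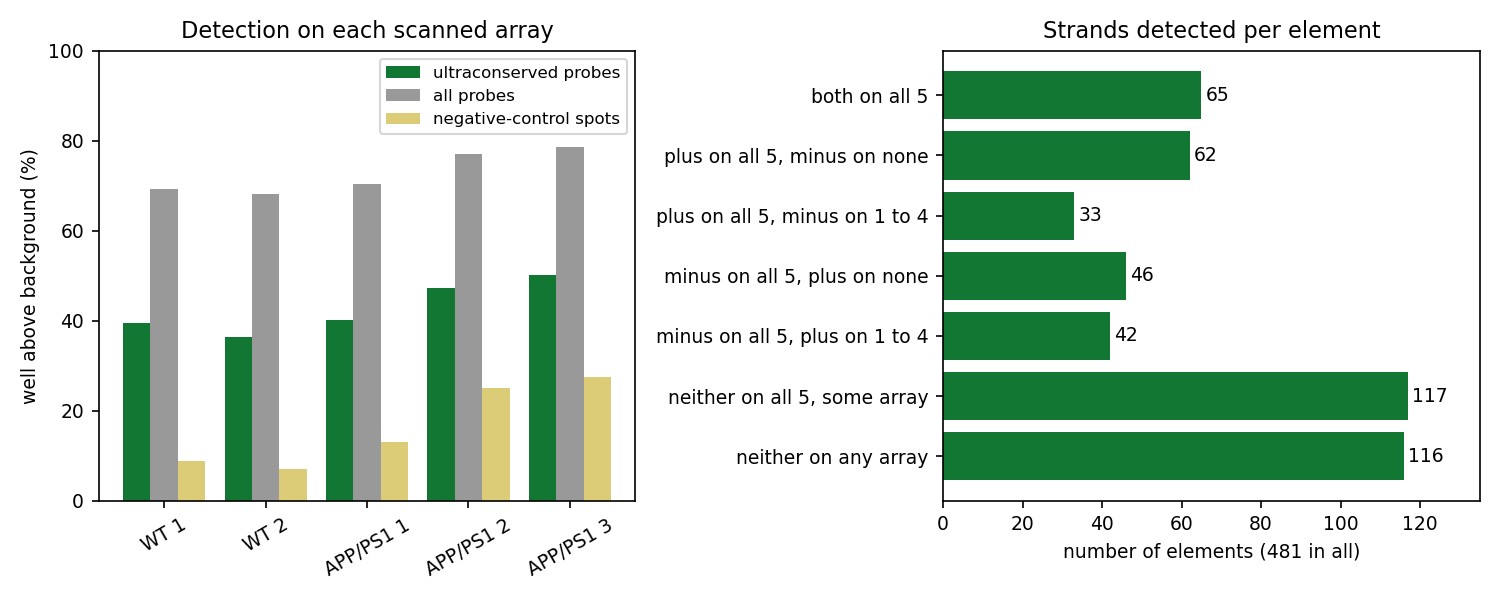
Left, percent of ultraconserved probes, of all non-control probes and of negative-control spots flagged well above background on each scanned array. Right, the 481 elements by the strands detected over the 5 arrays; 65 had both strands on every array and 116 had neither on any.

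Ultraconserved probes were dim as a group. The median log2 signal of the 510 was 5.59, with quartiles of 4.34 and 7.47, against 7.05 for all 48436 probes, and 155 of the 510 (30.4%) lay above that overall median. A small set was bright: 20 probes (3.92%) lay above 12.3, the level exceeded by the top 10% of all probes. Of these 20, 15 were minus probes. Brightness depends on how well a probe hybridises as well as on RNA amount, so the order of probes below is one of signal and not of abundance.

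The 10 brightest were uc.45-, uc.420-, uc.84-, uc.188-, uc.268-, uc.141-, uc.46-, uc.465-, uc.471+ and uc.34+, of which 8 were minus probes, and each was detected on every scanned array. The first 4 had mean signals between 14.40 and 14.45 and their order turned between genotypes: uc.188- was above uc.84- in every WT sample and below it in every APP/PS1 sample. uc.45- had values of 14.28, 14.49 and 14.38 in WT and 14.55, 14.54 and 14.48 in APP/PS1. Its neighbour in number, uc.46-, had 14.00, 14.02 and 14.08 in WT and 14.28, 14.18 and 14.19 in APP/PS1. The catalogue numbers elements in their order along the human chromosomes, so neighbouring numbers are often close in the genome. For both elements the minus probe far outshone the plus probe, at 7.35 to 7.93 for uc.45+ and 7.64 to 8.13 for uc.46+. uc.268- had the narrowest range of the 10, with 14.21, 14.21 and 14.23 in WT and 14.24, 14.18 and 14.27 in APP/PS1. The lowest and the highest of the 10 means were 13.85 and 14.45.

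Among these 10 bright probes, 3 changed between genotypes. uc.84- had values of 13.94, 14.09 and 13.99 in WT and 14.91, 14.82 and 14.91 in APP/PS1. The groups did not overlap, and it rose 1.85-fold (log2 change 0.89 ± 0.07 SE, limma adjusted p = 0.00436). uc.465- rose 1.73-fold, from 13.63, 13.57 and 13.60 to 14.32, 14.45 and 14.43 (adjusted p = 0.00548). uc.188- fell by 0.52 on the log2 scale, from 14.64, 14.71 and 14.64 in WT to 14.20, 14.09 and 14.13 in APP/PS1 (adjusted p = 0.0105). Without WT replicate 1, uc.188- did not pass the threshold (adjusted p = 0.0527), nor with a normexp background correction (adjusted p = 0.0852). The other 7 did not pass, with log2 changes between -0.27 and 0.43.

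The 2 strands of an element usually gave very different signals. Among the 157 elements with both probes in the table, the minus probe was brighter in all 6 samples for 78 and the plus probe for 54, while the sign differed among samples for 25. The median absolute difference between strands was 2.26 on the log2 scale, and 123 pairs were at least 2-fold apart. A difference of at least 16-fold was found for 25 elements with the minus probe brighter and 14 with the plus probe brighter. Among the 65 pairs with both probes detected on all 5 arrays, the minus probe was brighter in 35, the plus probe in 24, and 6 were mixed. These are differences between probes of different sequence and were not tested. The reproducibility over samples is that of the probes and of the RNA together.

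The widest differences with the plus probe brighter were in uc.471, uc.34, uc.217, uc.481 and uc.356. For uc.471 the plus probe exceeded the minus probe by 8.41, 8.14 and 8.25 in WT and by 6.95, 7.67 and 7.23 in APP/PS1 (log2). The other 4 had mean differences between 6.25 and 6.94. All 10 probes of these 5 elements were detected on every scanned array, so the weak strand was measured and not merely at background.

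The widest differences with the minus probe brighter were in uc.84, uc.141, uc.144, uc.420 and uc.408. uc.84- at 14.44 stood against uc.84+ at 3.13, a mean difference of -11.31 in table values that is no measured ratio, since the plus probe was not well above background on 4 of 5 arrays. It was near the floor of the table in 5 samples (2.32 to 2.60) and at 6.60 in APP/PS1 replicate 1, the only array where it was detected. The other 4 had mean differences between -8.88 and -7.55, and the weak plus probe was detected on 4, 3, 5 and 2 of the 5 arrays for uc.141, uc.144, uc.420 and uc.408. These elements were bright on 1 strand and dim on the other.

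**Figure D2:**
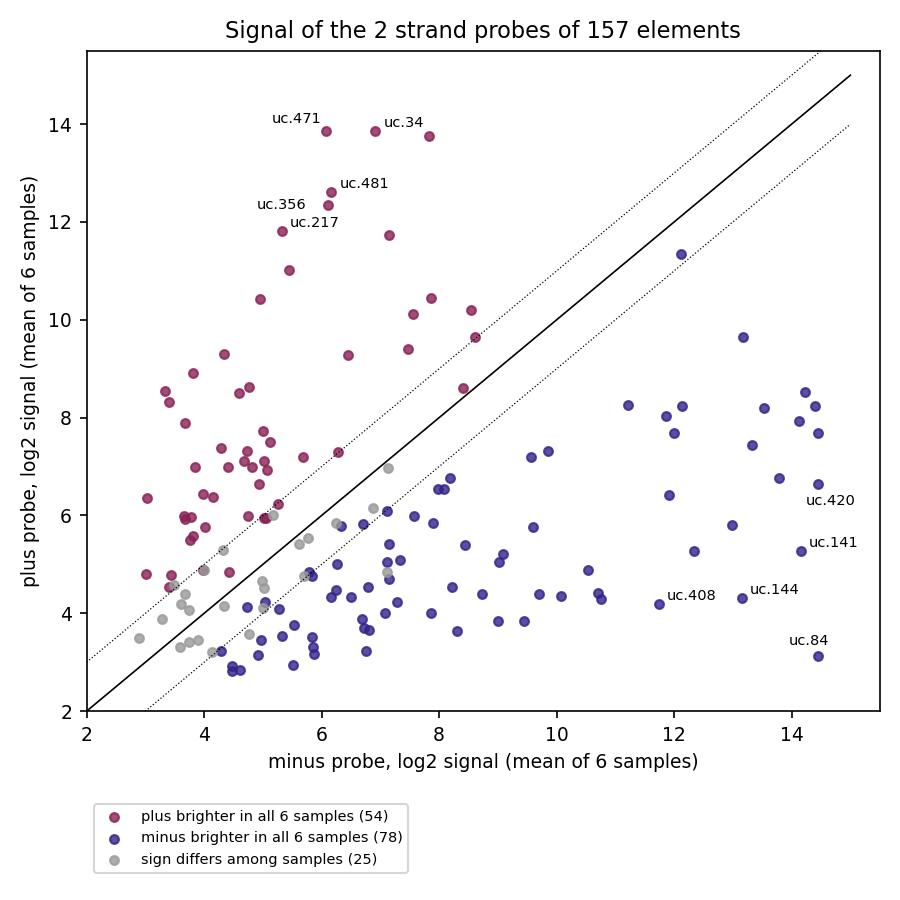
Mean log2 signal over 6 samples of the plus probe against the minus probe for the 157 elements with both in the table; the solid line marks equality and the dotted lines 2-fold. Points far from the line, such as uc.84 and uc.471, are elements with 1 bright and 1 dim strand.

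Elements with neighbouring numbers did not generally share the brighter strand. Of 47 pairs of consecutive numbers that each had a steady brighter strand, 22 shared it, 18 of them minus. uc.45 and uc.46 were among them.

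Between genotypes, 70 ultraconserved probes rose and 67 fell in APP/PS1 brain, and 373 did not pass an adjusted p of 0.05 (limma, Benjamini-Hochberg over all 48436 probes). The 137 called were 26.9% of the 510, against 30.1% of all probes. The rises were 13.7% of the ultraconserved probes and 14.2% of all probes, and the falls 13.1% and 15.9%. Both shares were near the background, so the count of calls is not a result about these elements. The median log2 change was -0.02 over the 510 and -0.03 over all probes. The calls came from 124 element numbers, 74 on plus and 63 on minus probes, and 55 of them were smaller than 1.5-fold. Among probes detected on all 5 arrays, 134 of 313 ultraconserved probes (42.8%) were called, beside 42.4% of all such probes. Changes of at least 2-fold were called for 19 rises (3.73%) and 17 falls (3.33%), where all probes gave 3.66% and 1.97%. The count of 137 became 63 and 71 when APP/PS1 replicate 2 or 3 was dropped, and the share of all probes there is not given here. It also fell without WT replicate 1, which leaves 1 WT sample in the fit. A further limit is the table's lowest value, shared by many dim probes: 60 of the 510 lay at it in at least 1 sample, 12 of them called.

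With signals taken from the scanner files and scaled to each array's 75th percentile, 92 ultraconserved probes rose and 53 fell among 449 tested. All probes there gave 18.1% rises and 14.5% falls, against 20.5% and 11.8% of the ultraconserved probes. The median log2 change was 0.11 over the ultraconserved probes and 0.04 over all. Median centred, 15.8% rose and 14.3% fell (all probes 13.1% and 17.5%), and with quantile normalization 16.7% and 15.1% (15.4% and 17.3%). With normexp 4.45% rose and 9.8% fell (7.4% and 9.8%), so the balance depended on the processing. These fits kept only probes detected on at least 2 arrays, and more probes were detected on the APP/PS1 arrays. The part of this in the balance was not tested.

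**Figure D3:**
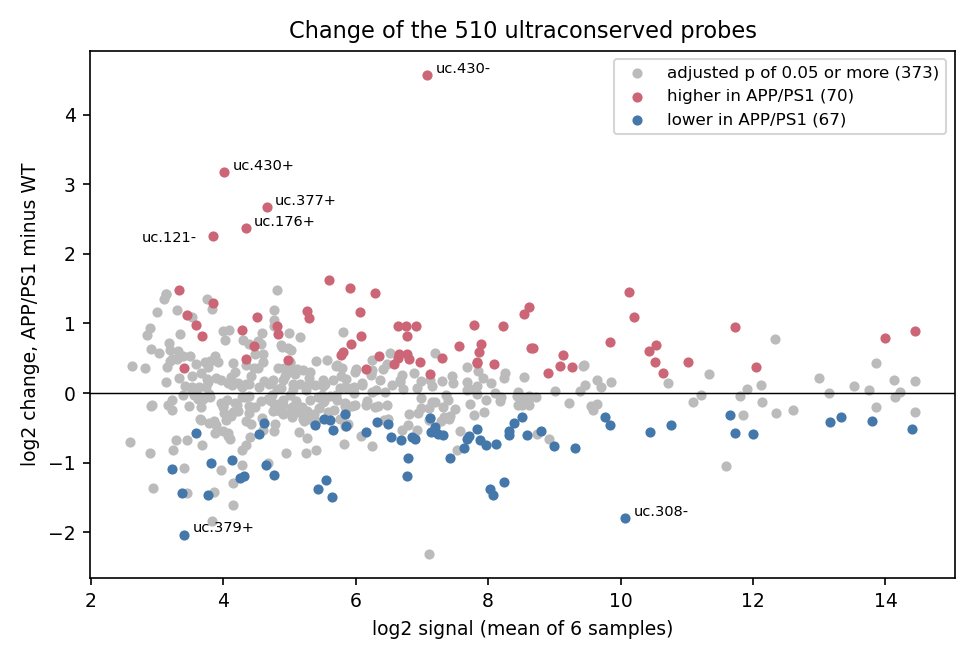
Log2 change (APP/PS1 minus WT) of each of the 510 ultraconserved probes against its mean log2 signal, with the 70 rises and 67 falls past the threshold coloured. uc.430- lies at the top, and the plotted change of uc.430+ starts from the table's lowest value in WT. The 10 brightest probes, at the far right, changed by less than 1 log2 unit.

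The largest fitted rise was in uc.430-, and the opposite strand rose too. uc.430- had values of 4.47, 5.01 and 5.05 in WT and 9.34, 9.29 and 9.35 in APP/PS1. All APP/PS1 values lay more than 4 log2 units above the WT values, and 1 of the 2 scanned WT arrays detected the probe against 3 of 3 APP/PS1 arrays. The rise was 23.9-fold (log2 change 4.58 ± 0.18 SE, limma adjusted p = 0.00122). uc.430+ was at 2.41, 2.44 and 2.43 in WT, the lowest value of each column, and at 5.53, 5.59 and 5.69 in APP/PS1. No WT array detected it, so it has only a bound: at least 2.45-fold higher in APP/PS1. The bound is the APP/PS1 mean against the dimmest signal that counted as detected on each WT array. The limma adjusted p of 0.000499 tests the table values, whose WT spread is set by the table's lowest value. It does not test the bound, and the same holds for the adjusted p beside each bound below. uc.430- kept its call in each alternative setting that held it, but its log2 change ran from 2.53 to 4.75 over these, so the size of the rise depends on the setting. uc.430+ lost it with normexp (log2 change 0.26, adjusted p = 0.405). The next number, uc.431+, was detected on 3 of 3 APP/PS1 arrays and no WT array, at 3.41, 4.55 and 4.52 in WT and 5.79, 5.12 and 5.45 in APP/PS1, and did not pass (adjusted p = 0.0534). It was looked at after its values were seen.

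Other dim probes went from background to detection. uc.377+ was at 2.41, 4.02 and 3.93 in WT and at 5.88, 5.90 and 5.82 in APP/PS1, at least 2.93-fold higher (adjusted p = 0.02). uc.176+ was at 3.33, 3.62 and 2.43 in WT and at 5.78, 5.46 and 5.41 in APP/PS1, at least 2.38-fold higher (adjusted p = 0.00318). uc.121- was at least 1.58-fold higher (adjusted p = 0.0138). For these 3 no scanned WT array and all APP/PS1 arrays detected the probe, and each adjusted p is that of the table values and not of the bound. uc.367- also went from none to all APP/PS1 arrays, but its mean did not exceed the dimmest detected signal of the WT arrays, so no bound is given. In all, 26 of the 962 probes (2.7%) were detected on all APP/PS1 arrays but on no WT array, against 2.44% of all non-control spots, and 0 showed the opposite. Of the 26, 15 were plus probes. The 11 of them that were called were all higher, but the detection rule itself favours rises. That count is therefore no separate result, and the share called among all spots picked by the same rule is not given here. More spots were detected on the APP/PS1 arrays, negative controls included, as given above, and the part of this in the 26 was not tested.

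Among rises with signal in both genotypes, uc.480+ had values of 4.94, 5.31 and 5.34 in WT and 6.67, 6.88 and 6.39 in APP/PS1. The groups were more than 1 log2 unit apart, and the rise was 2.86-fold (log2 change 1.51 ± 0.20 SE, limma adjusted p = 0.0101). uc.284+ was detected on 1 of 2 WT arrays, with 5.29, 4.44 and 4.39 in WT and 6.51, 6.55 and 6.37 in APP/PS1, and rose 3.08-fold (adjusted p = 0.018). With normexp, 8 of the 10 largest rises lost their call, uc.480+ (log2 change 0.28, adjusted p = 0.371), uc.284+ (0.18) and uc.377+ (0.18) among them, and uc.176+, uc.121- and uc.367- turned to -0.013, -0.12 and -0.33. The normexp setting adds a constant of 50 to each signal, which shrinks the log2 changes of dim probes. The median processed signal of the 962 ultraconserved probes was 9.0 to 15.8 on the 5 arrays. The part of this in the lost calls was not tested. Leaving out 1 library also ended several of the calls for these rises. Without WT replicate 1, uc.121-, uc.480+ and uc.367- did not pass, and without WT replicate 3, uc.367- did not. uc.377+ and uc.284+ did not pass without any 1 of the APP/PS1 replicates, uc.367- without replicate 2 or 3, and uc.121- without replicate 3. The other 2 of the 10 largest rises belong to elements reported elsewhere and are given with them.

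Among falls, uc.308- was the largest with clear signal in both genotypes. It had values of 11.11, 10.83 and 10.91 in WT and 8.96, 9.21 and 9.42 in APP/PS1. The groups were over 1 log2 unit apart, and it fell by 1.79 on the log2 scale (SE 0.17, adjusted p = 0.00551). uc.12- had 8.70, 8.87 and 8.91 in WT and 7.34, 7.26 and 7.40 in APP/PS1, and fell by 1.46 (adjusted p = 0.0028). The neighbours uc.418+ and uc.419+ fell together. uc.418+ went from 8.80, 8.97 and 8.92 to 7.62, 7.61 and 7.56, a fall by 1.28 (adjusted p = 0.00254). uc.419+ went from 8.40, 8.71 and 9.20 to 7.27, 7.45 and 7.18, a fall by 1.38 (adjusted p = 0.0121). Their outer neighbours moved the other way: uc.417+ rose by 0.60 and uc.420+ by 0.51, both log2 changes past the threshold and both looked up after the fall was seen.

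uc.221- fell by 1.39 (adjusted p = 0.0166), with 6.29, 5.99 and 6.01 in WT and 4.42, 4.77 and 5.09 in APP/PS1, where 2 of 3 arrays detected it. Its neighbour uc.220- passed the threshold too, but no array of either genotype detected it, so no fold is given. uc.181+ was 2.83-fold lower (adjusted p = 0.0306), with WT replicate 1 at 6.99 above WT replicates 2 and 3 at 6.01 and 5.95. uc.453- fell by 1.25 (adjusted p = 0.0138). uc.379+ was detected on 1 of 2 WT arrays and no APP/PS1 array, so neither a fold nor a bound is given. The adjusted p of 0.00309 is that of its table values, which lay at 2.37, 2.33 and 2.56 in APP/PS1, at or near the table's lowest value. uc.382+ passed with no array of either genotype detecting it. Without WT replicate 1, uc.382+, uc.221- and uc.453- did not pass. uc.181+ did not pass without any 1 of the APP/PS1 replicates, uc.382+ and uc.220- without replicate 2 or 3, and uc.221- without replicate 2. The largest change that missed the threshold was in uc.183-, with 8.22, 8.34 and 8.27 in WT and 6.91, 6.93 and 4.01 in APP/PS1 (log2 change -2.31 ± 1.02 SE, adjusted p = 0.155), named after its values were seen. All 3 APP/PS1 samples were lower, and replicate 3 stood far below the other two.

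**Figure D4:**
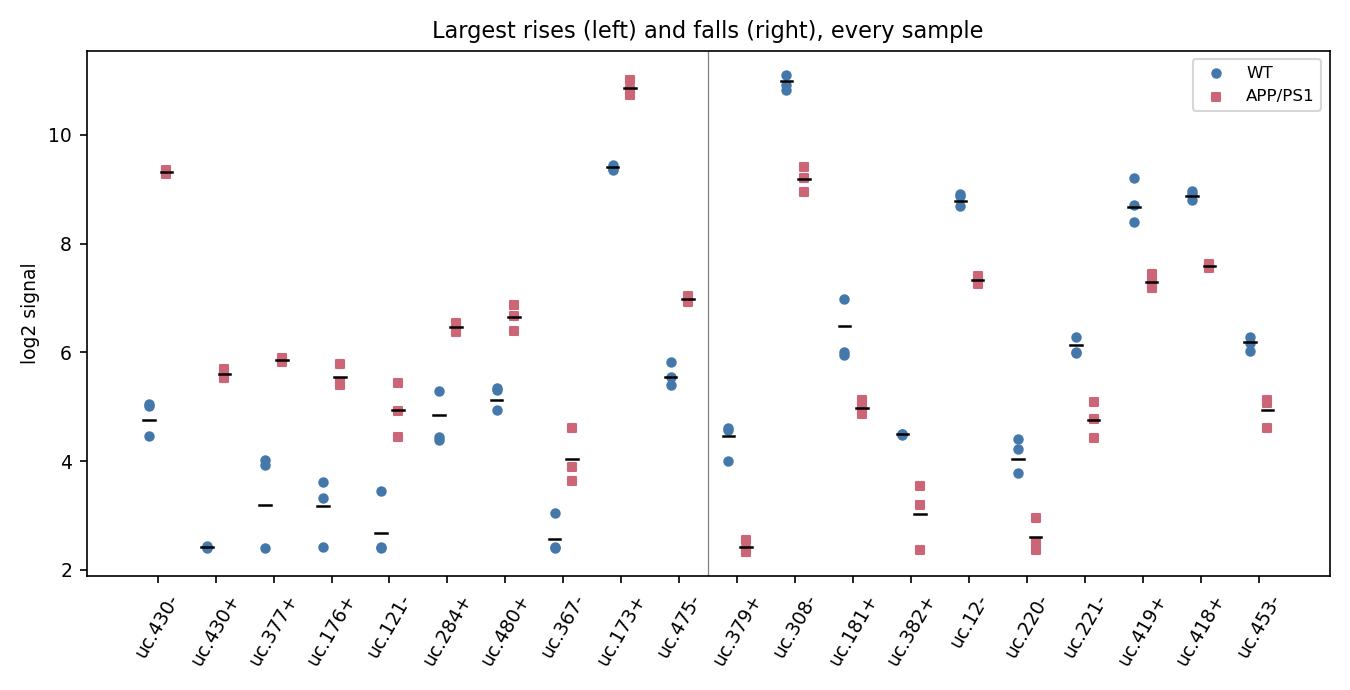
Log2 signal in each of the 6 samples for the named rises and falls, 10 of each; circles are WT, squares APP/PS1 and black bars the group means, with WT replicates 2 and 3 averaged first. uc.430- and uc.308- show wide gaps between genotypes, while uc.382+ and uc.220- were detected on no array.

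Neighbouring numbers had a mixed record. Among 288 pairs of consecutive numbers on the same strand with both probes in the table, both were called in 20, of which 10 moved in the same direction and 10 in opposite directions. Across those 288 pairs the log2 changes correlated at 0.145, a description over probes that share the same arrays. On opposite strands the correlation was similar, at 0.141 over 278 pairs of consecutive numbers. Both were called in 17 of these, 12 in the same direction and 5 in opposite directions.

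Of 20 element numbers chosen because they have been reported elsewhere as transcribed in tumours or other tissues, 12 had at least 1 of their probes in the table, 20 probes in all. Of these 20 probes, 4 rose, 1 fell and 15 did not pass, a share of calls near the 30.1% of all probes. Their median log2 change was 0.02, beside -0.02 for the 510. In 1 of these elements both strands rose. Its plus probe had values of 9.44, 9.35 and 9.38 in WT and 10.73, 10.83 and 11.02 in APP/PS1, groups more than 1 log2 unit apart, and rose 2.75-fold (log2 change 1.46 ± 0.11 SE, limma adjusted p = 0.00361). Its minus probe rose 1.6-fold (adjusted p = 0.0138). In a second element the minus probe rose 2.71-fold (adjusted p = 0.00367), while its plus probe had a log2 change of 0.17 (adjusted p = 0.326). In another the plus probe fell by 0.55 (adjusted p = 0.0399) and the minus probe, detected on no WT array and 2 APP/PS1 arrays, passed the threshold upward (adjusted p = 0.0459) with no bound. The largest fall in size among the 20 had a log2 change of -0.81 and did not pass (adjusted p = 0.327).

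A fixed difference in efficiency between the probes drops out when the strand difference of an element is compared between genotypes. This difference, plus minus minus on the log2 scale, was fitted for all 1152 strand pairs of the table, 157 of ultraconserved elements and 995 of long intergenic non-coding RNA exons. It changed for 13 ultraconserved elements (8.28%), beside 10.2% of all pairs (limma, Benjamini-Hochberg over the 1152), a share near the background. Of the 13, 11 moved toward the minus strand (7.01% of the 157, against 5.12% of all pairs) and 2 toward the plus strand (1.27%, against 5.12%). In the scanner signals 30 of 127 elements changed (23.6%, beside 17.6% of all pairs in that fit), 15 in each direction, so the tilt to minus was not seen there. With WT replicate 1 or any APP/PS1 replicate left out, 0 of the 157 passed, although all 13 kept their sign. The smallest adjusted p among the 13 was then between 0.0554 and 0.0742. With normexp, 5 of the 12 that entered that fit kept their call and 11 kept their sign. In 7 of the 13, both probes were detected on all 5 arrays.

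uc.239 had the largest change of strand difference. Its difference was 0.10, -0.40 and -0.27 in WT and 2.24, 2.10 and 2.12 in APP/PS1, a change of 2.27 ± 0.20 (SE, adjusted p = 0.0109). The plus probe rose from 4.97, 4.51 and 4.71 to 6.00, 5.81 and 5.81, while the minus probe fell from 4.87, 4.91 and 4.98 to 3.76, 3.71 and 3.69. Both probes passed the threshold on their own (adjusted p of 0.00997 and 0.00229). With normexp the change of the difference was 0.61 and did not pass (adjusted p = 0.054). The plus probe was detected on 4 and the minus probe on 3 of the 5 arrays. With a mean log2 signal of 4.32 the minus probe was dim, so its fall lies near background.

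uc.298 also had strands that moved apart, from differences of -2.67, -3.19 and -2.98 in WT to -4.50, -4.38 and -4.38 in APP/PS1 (change -1.54 ± 0.20 SE, adjusted p = 0.0236). Its plus probe fell by 0.58 and its minus probe rose by 0.96 on the log2 scale. The plus probe was dim (mean log2 signal 4.54) and detected on 3 of the 5 arrays, so its fall lies near background. In the second of the elements reported elsewhere, above, the rise of the minus probe narrowed the gap, from 1.73, 1.73 and 1.45 to 0.52, 0.29 and 0.36 (change -1.27, adjusted p = 0.0236). uc.473 went from 5.51, 5.86 and 5.36 to 4.28, 4.51 and 4.31 (change -1.19, adjusted p = 0.0258), but no WT array detected its minus probe, so the WT differences are taken against a probe not well above background. uc.418 went from -3.41, -3.17 and -3.33 to -4.58, -4.45 and -4.40 (change -1.15, adjusted p = 0.0261), since only its plus probe fell past the threshold. uc.430 also passed (adjusted p = 0.0261), but its plus probe lay at the table's lowest value in every WT sample, so which strand rose by more cannot be read.

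**Figure D5:**
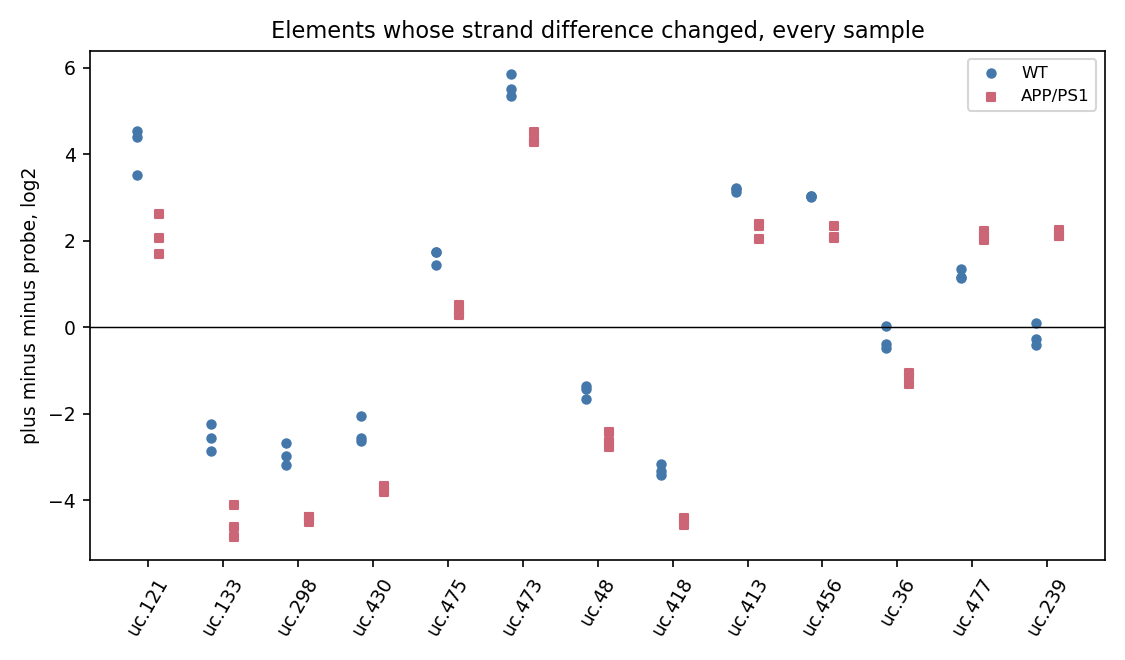
Difference between the plus and the minus probe (log2) in each sample for the 13 elements whose difference changed between genotypes; circles are WT and squares APP/PS1. In uc.239 the WT samples lie near 0 and the APP/PS1 samples above 2.

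Of the 157 elements, both probes were called in 13 (8.28%), 1 probe in 57 and neither in 87. Both were called in 8.68% of all 1152 strand pairs, so the share for ultraconserved elements was near the background. Among the 13, 5 rose on both strands, 4 fell on both and 4 moved in opposite directions. Elements called higher on both strands included uc.430, uc.377 and uc.367. No WT array detected uc.430+ or uc.367-, and uc.367- had no bound and changed sign with normexp. In uc.367 the plus probe went from 7.98, 7.99 and 7.94 in WT to 9.18, 9.04 and 9.11 in APP/PS1, an example picked after its values were seen. Those that moved in opposite directions were uc.133, uc.239, uc.298 and the last of the elements reported elsewhere that were described above. No array of either genotype detected uc.133+, so its fall lies among background values, and uc.239- and uc.298+ were each detected on 3 of the 5 arrays. In uc.377 the minus probe was brighter in all WT samples (differences of -2.42, -0.50 and -0.91) and the plus probe in all APP/PS1 samples (0.74, 0.68 and 0.50), with a limma adjusted p of 0.0599 for the change. No WT array detected uc.377+, which lay at the table's lowest value in WT replicate 1. Its WT differences are thus taken against a probe not well above background. uc.469 turned the other way, with an adjusted p of 0.132, and no other element changed its brighter strand in this way. The minus probe of uc.469 was detected on 2 of the 5 arrays.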

How the data were processed

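Scanner files hold spot intensity and flags of 0 or 1 from the authors' scanner software (Agilent Feature Extraction 11.0.1.1 and array build mm9, per the submitters' processing notes). The authors also deposited a table of log2 signal, and the sources used here do not give its normalization or row filter. Its columns correlated at 0.9996 or more with the log2 processed signal of their arrays.

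Rows were tied to probes by spot number. Genotypes were compared on this table by limma 3.58.1 (R 4.3.3; two-sided moderated test, Benjamini-Hochberg adjustment, threshold 0.05), with the mean of WT replicates 2 and 3 as 1 sample. The fit was also run on simulated data with independent normal noise. These had no lowest table value and no slide effect, so the run does not bear on those limits. Scanner fits kept probes well above background on at least 2 arrays, and normexp used an offset of 50.

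Named were the 10 brightest probes, the 10 largest called rises and falls without overlap between genotypes, the 5 widest strand differences per direction, the 5 changed strand differences of smallest p, and the extremes among elements reported elsewhere. Members and lists were chosen with earlier results of these data known. Samples of the same number did not deviate together (correlations of 0.0505, -0.0775 and 0.0115 across bright probes), so numbers were not taken as pairs.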

Additional observations from a re-analysis of the deposited data

Results flagged for a closer look

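The change between genotypes differed between the strands of 5 named elements by a test of the difference itself (limma on the plus minus minus difference). The change of the difference was 2.27 in uc.239, -1.54 in uc.298, -1.27 in the second of the elements reported elsewhere, -1.19 in uc.473 and -1.15 in uc.418 (log2, APP/PS1 minus WT). All 5 lost the call when WT replicate 1 or any APP/PS1 replicate was left out. With normexp, uc.298 (-1.36) and uc.418 (-1.12) kept the call, while uc.239 (0.61), uc.473 (-0.30) and the element reported elsewhere (-0.45) lost it.

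Of the 452 ultraconserved probes outside the value table, 41 were well above background on at least 1 scanned array, 37 on 1 array and 4 on 2. Negative-control spots carried the same flag in 7.0% to 27.6% of cases per array. That is a rate on a single array, so it cannot be set against a count over all scanned arrays.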

How the results depend on the processing

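The count of 137 called probes (26.9% of those tested) stayed within 1.5 times with WT replicates 2 and 3 apart, 3 scalings of the scanner signals, the filter to probes detected on all 5 arrays (134 of 313, or 42.8%), another variance model and the replicate block (31.0%). Of all probes, 30.1% were called in the main fit, 42.4% of those detected on all 5 arrays, and 31.8% with the replicate block. The count became 64 (14.3%, beside 17.2% of all probes) with normexp and 47 (9.22%) by a 2-fold change and unadjusted p. With 1 sample other than WT replicate 1 left out, 12.4% to 27.1% were called, the lowest 63 without APP/PS1 replicate 2. For the 2-fold rule and the left-out samples the share of all probes is not given here. The median log2 change was 0.11 in the scanner signals (0.04 over all probes), 0.020 median centred (-0.053) and 0.0080 with quantile normalization (-0.030). It was -0.33 with normexp, where all probes gave -0.22, and -0.048 on probes detected on all 5 arrays, where all gave -0.05. With 1 sample left out it ran from -0.0083 to 0.0088. The 13 changed strand differences (8.28%, beside 10.2% of all pairs) became 41 with WT replicates 2 and 3 apart (26.1%, beside 23.1%). They were 30 in the scanner signals, also median centred (23.6%, beside 17.6%), and 23 with quantile normalization (18.1%, beside 15.2%). On probes detected on all 5 arrays they were 24 (36.9%, beside 31.6%), and with the replicate block 14 (8.92%, beside 11.4%). By a 2-fold change and unadjusted p they were 25. With 1 sample other than WT replicate 1 left out they were 0 to 14. For these 2 settings the share of all pairs is not given here. Among the 510 probes of the table, detection of 313 on all 5 arrays became 471 with the positive-and-significant flag and 490 on any array. The plus probe was brighter in 54 pairs, and in 24 where both probes were detected throughout. Of the 23 named probes past the threshold, 11 kept direction and call with normexp, 12 on probes detected on all 5 arrays (fewer probes are in that fit), and 16 to 23 with 1 sample left out.

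With normexp, 8 of the 10 named rises lost their call and all 7 falls in that fit kept theirs; uc.176+, uc.121- and uc.367- reversed there (-0.013, -0.12 and -0.33), and the cause was not tested. Probes and strand differences that had not passed also changed sign: uc.141- (0.14) and the differences of uc.34 (0.27), uc.217 (0.41), uc.481 (0.063), uc.356 (0.16), uc.141 (-0.18) and uc.144 (-0.49) with normexp, and uc.268- median centred (-0.056). With 1 sample left out, uc.268- ran from -0.0050 to 0.040, the largest fall among elements reported elsewhere from -1.075 to 0.015, and the strand difference of uc.84 from -0.84 (without APP/PS1 replicate 1) to 1.30. Without WT replicate 1 the lone WT sample is assumed to vary like the other group. Dim probes limit what can be read: 197 of the 510 were not detected on every scanned array.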
